A study of Mus musculus with 28 samples.

Results

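Messenger RNA bound to tagged ribosomes of layer 5 projection neurons was compared with the RNA of the whole cortex in mice 30 days after immunisation, the chronic phase of experimental autoimmune encephalomyelitis (EAE). The comparison used all 4 chronic pulldown (IP) libraries and all 4 chronic input libraries of a series of 28 libraries, and every gene in the deposited table that passed a filter on low counts (16580 of 43629). All 28 libraries carried the Glt25d2 BacTRAP genotype, which the healthy controls shared. The other 20 libraries were 5 IP and 5 input libraries from healthy mice and 5 of each from mice 15 days after immunisation (acute), and they enter here through the shared estimate of the spread and through the comparison of ratios at the end. EAE was induced actively with the myelin peptide MOG35-55. The series title names STING1, an innate immune adaptor, in the injurious stress response of neurons, and the purpose of pairing pulldown with input was to read the translated RNA of these neurons against the tissue around them.

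In a bacTRAP mouse, a green fluorescent fusion of the ribosomal protein L10a is made in the cells in which a bacterial artificial chromosome is active, here that of Glt25d2, now called Colgalt2. Antibodies to the tag then pull down ribosomes with the RNA they carry. Glt25d2 marks projection neurons of layer 5, large pyramidal cells that send axons out of the cortex, to the brainstem and spinal cord among other targets. The pulldown thus reports RNA on ribosomes of the cells in which that driver is active, while the input holds all polyadenylated RNA of the cortex, nuclear RNA and RNA inside mitochondria included.

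Some transcripts carry short elements that regulate when ribosomes load on them. One such element is the iron-responsive element, a hairpin near the 5′ end that iron regulatory proteins bind when iron is scarce. The 2 genes below differed between the fractions and have a hairpin of this form in the transcripts of the reference (GENCODE M21, GRCm38). Their hairpins are shown because both genes lay lower in the pulldown. The capitals mark the 6-base loop.

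Fth1: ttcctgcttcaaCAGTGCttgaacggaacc
Ftl1: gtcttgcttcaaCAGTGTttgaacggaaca

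The Fth1 window lies at chr19:9982732-9982761 on the plus strand, in the 5′ untranslated region of the transcript Fth1-201, with its loop 126 bases before the coding start. The Ftl1 window lies at chr7:45459778-45459807 on the minus strand, in the 5′ untranslated region of Ftl1-201, with its loop 164 bases before the coding start. A search for CAGTG and 1 base other than G between 5 pairing bases on each side (G with U allowed), on the transcript's own strand and in its first 250 bases, found such a hairpin in 73 of 7637 genes of at least 20 counts per 1000000 counts on genes (CPM), or 0.956%. It was present in 22 of 1424 genes that were higher in the pulldown (1.54%) and in 14 of 1108 that were lower (1.26%). A match is a description of letters and not evidence of binding.

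The input libraries held 18088348 to 19477229 counts on genes and the IP libraries 11396791 to 19309770. Between 20909 and 21167 genes had a count in an input library, and between 10933 and 13746 had one in an IP library. The 100 most abundant genes took 14.3% to 14.8% of the counts of an input library and 20.4% to 23.2% of an IP library. Correlations of log2 CPM between libraries of a fraction were 0.986 to 0.989 in the input and 0.805 to 0.852 in the IP, and the biological coefficient of variation was 0.106 and 0.427. Each IP library thus sampled fewer genes and varied more than each input library. Since nothing in the labels tells whether each library is a mouse of its own, p-values here reflect only how much these libraries spread, and that spread may be technical.

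Levels below are in CPM on library sizes scaled by the trimmed mean of M values, ratios are log2 of IP over input ± standard error, and adjusted p-values are Benjamini-Hochberg values over all genes from edgeR's quasi-likelihood test. Of 16580 genes, 1449 were higher in the chronic IP than in the chronic input at an adjusted p under 0.05 (8.74%) and 3315 were lower (20%). Of the 3315 lower genes, 2198 lay under 20 CPM over the 8 libraries, and 2059 had no count in any of the 4 IP libraries. The share called lower was 51.7% among genes under 2 CPM in the input, 1.41% among those between 10 and 20 CPM and 25.1% among those of 100 CPM or more. On simulated libraries of the same depth and spread, genes under 20 CPM were often called lower with no change built in, so the low-level calls carry less weight here. With the fit confined to the 7650 genes with a mean of at least 20 CPM over the 8 libraries, a limit set after the data were seen, 1512 were higher (19.8%) and 1171 lower (15.3%). That mean covers both fractions, so a gene low in either fraction could pass the limit through the other. Gene groups below are read from the genes called in both fits, 1426 higher (18.6%) and 1109 lower (14.5%), of which 646 (8.44%) and 550 (7.19%) differed by more than 2-fold. The median log2 ratio of the 7650 genes was −0.02, and that of all 16580 was −0.32.

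**Figure D1:**
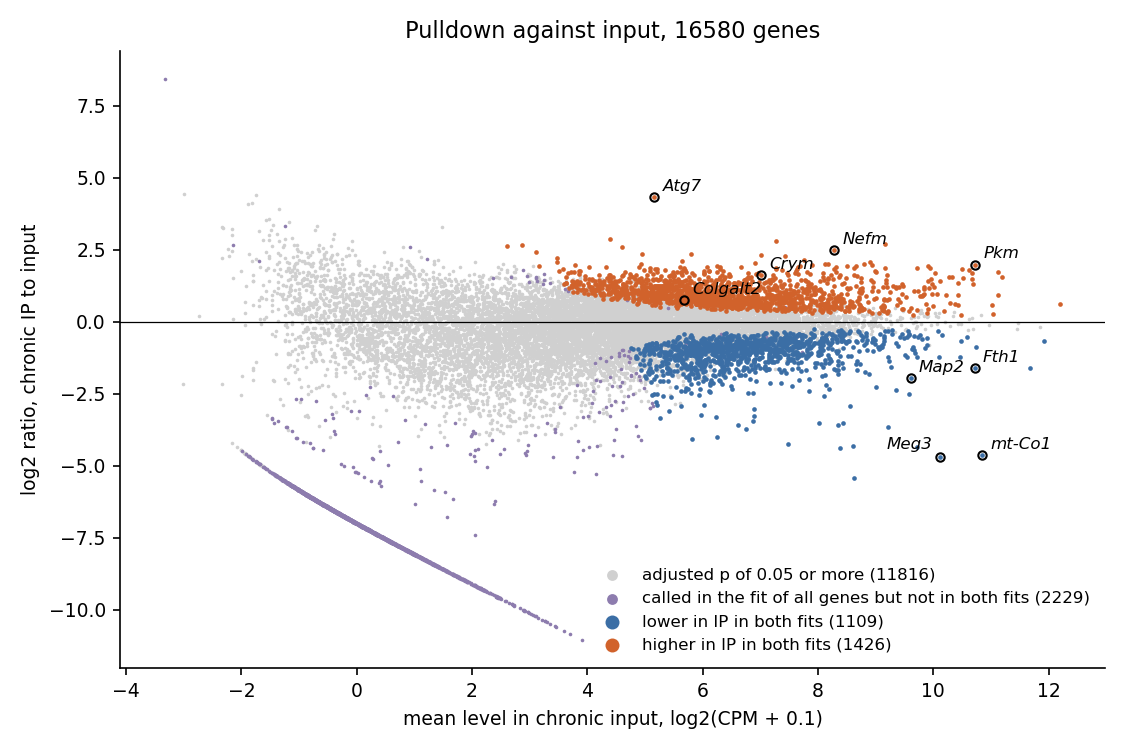
Each point is 1 of 16580 genes, with its mean level in the 4 chronic input libraries (log2 of CPM plus 0.1) on the x axis and its log2 ratio of chronic IP to chronic input on the y axis. Colours show the 1426 genes higher and the 1109 lower in both fits, and the band at the lower left holds genes with no count in any IP library, whose fitted ratio is set by the prior count.

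The pulldown was richest in a few genes of large ratio. The 12 with the largest positive ratio under the naming rule were Atg7, Sh2d3c, Ubr3, Kalrn, Zbtb48, Cspg4, Comtd1, Yeats2, Nefm, Hps6, Mthfd1 and Lrpprc, from 4.33 down to 2.33 on the log2 scale. The 12 with the lowest ratio were mt-Nd5, Socs4, Meg3, Zkscan8, mt-Co1, Hipk2, mt-Nd2, Lnpep, mt-Cytb, Cd2ap, mt-Nd4 and Miat, from −5.43 to −4.27. Atg7, the enzyme that activates ubiquitin-like proteins in autophagy, held 39.2, 35.3, 36.0 and 32.4 CPM in input libraries 1 to 4 and 930, 801, 786 and 350 CPM in IP libraries 1 to 4. Every IP library lay far above every input library, and the log2 ratio was 4.33 ± 0.20 (adjusted p = 4.5e-15). Ubr3, a ubiquitin ligase, held 140 to 168 CPM in the input and 743 to 1506 CPM in the IP (2.81 ± 0.22, adjusted p = 9.3e-11). Kalrn, a guanine nucleotide exchange factor of dendritic spines, held 503 to 623 CPM in the input and 2398 to 5148 CPM in the IP (2.71 ± 0.25, adjusted p = 1.6e-09). Sh2d3c, an adaptor protein, gave a log2 ratio of 2.87 ± 0.21 (adjusted p = 1.7e-11). These 4 genes were at least as far above the input in the other phases, with Atg7 at 4.78 in healthy and 4.57 in acute mice, Ubr3 at 3.30 and 3.60, Kalrn at 3.82 and 3.08, and Sh2d3c at 3.25 and 3.47, and none of them passed the test of a difference between chronic and healthy ratios (adjusted p = 0.062 for Kalrn and 0.37 to 0.64 for the others). All libraries used here carried the tag, so RNA pulled down through the tag and RNA carried along without it cannot be told apart.

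The identity of the targeted neurons was checked on 4 genes. Colgalt2 (ENSMUSG00000032649, chromosome 1, 152399830 to 152510695), the gene whose regulatory sequence drives the tag, held 54.1, 51.6, 52.1 and 47.3 CPM in the input and 102, 81.4, 92.3 and 69.1 CPM in the IP. Every IP library lay above every input library, by a log2 ratio of 0.75 ± 0.19 (adjusted p = 0.003). Fezf2, a zinc finger factor needed for the subcerebral projection fate, held 56.3, 59.0, 64.3 and 44.7 CPM in the input and 290, 184, 126 and 118 CPM in the IP (1.68 ± 0.22, adjusted p = 1.5e-06). Pou3f1, a POU domain factor of corticospinal neurons, held 72.7, 76.0, 73.9 and 74.3 CPM in the input and 255, 194, 135 and 105 CPM in the IP (1.21 ± 0.22, adjusted p = 0.00019). Crym, a thyroid hormone binding protein of corticospinal neurons, held 99.9, 135, 152 and 126 CPM in the input and 402, 458, 405 and 299 CPM in the IP (1.61 ± 0.18, adjusted p = 1.2e-07). For all 4 genes the groups did not overlap, which was the case for 20.1% of genes of at least 20 CPM in this direction, and in each the lowest IP value was that of IP library 4. The levels of Fezf2 and Pou3f1 spread more than 2-fold among the IP libraries, and those of the input did not.

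**Figure D2:**
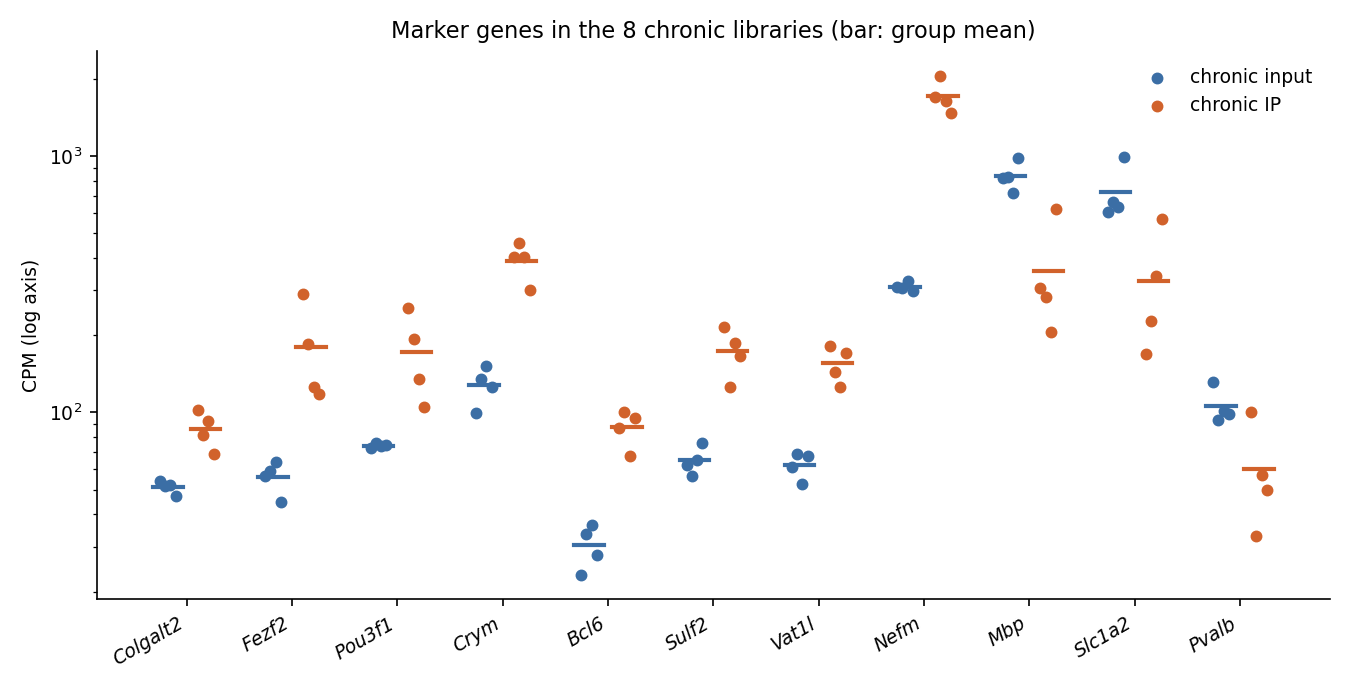
Points are CPM of single libraries on a log axis for 11 genes in the 4 chronic input and 4 chronic IP libraries, and bars are group means. At the left, higher members chosen from the layer 5 list and the neurofilament gene Nefm lie higher in every IP library than in any input library. Members of that list that were lower or did not pass, such as Fam19a2, Deptor and Bcl11b, are not shown. Mbp and Slc1a2 lie lower on average, with the highest IP value in library 4.

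Of 25 markers of layer 5 projection neurons, 17 reached 20 CPM, and 11 of them were higher and 2 lower in both fits, with a median of 1.22. Nefh, the heavy neurofilament subunit, held 63.2 to 71.6 CPM in the input and 187 to 273 CPM in the IP (1.75 ± 0.15, adjusted p = 3.3e-10). Bcl6, a transcriptional repressor, held 23.3 to 36.6 CPM against 67.6 to 100 CPM (1.53 ± 0.23, adjusted p = 9.2e-06). Sulf2, an extracellular sulfatase, and Vat1l gave 1.42 ± 0.23 and 1.31 ± 0.19 (adjusted p = 3.1e-05 and 4.5e-06), and Ldb2, Chst8 and Kcng1 were also higher. Etv1, Pde1a, Parm1 and Bcl11b, all of them used as layer 5 markers, did not pass, with log2 ratios of 0.22, 0.26, 0.57 and −0.29. The 2 members that were lower were Fam19a2, at 70.6 to 76.9 CPM in the input and 6.55, 8.45, 52.8 and 11.7 CPM in the IP (−1.90 ± 0.48, adjusted p = 0.0033, and 0.071 with the 8 chronic libraries fitted alone), and Deptor (−0.70 ± 0.26, adjusted p = 0.037), whose call was lost without any one of 3 input libraries (1, 2 or 3) or of 3 IP libraries (1, 2 or 3), at −0.72 to −0.63. The summed level of the list rose from 1354 ± 62 CPM in the input (SD, n = 4) to 2454 ± 303 CPM in the IP.

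Genes near the driver were read as well. Tsen15, a subunit of the transfer RNA splicing endonuclease that begins upstream of Colgalt2 on the other strand, held 120 to 128 CPM in the input and 148 to 219 CPM in the IP and did not pass the test (0.51 ± 0.37, adjusted p = 0.38), although it did with the 8 chronic libraries alone (0.55, adjusted p = 0.017). Rgl1, downstream, was lower in the IP, at 129 to 151 CPM against 60.6 to 96.2 CPM (−0.91 ± 0.16, adjusted p = 0.00013). Apobec4 had no count. The gene of the tagged protein itself, Rpl10a, held 135 to 145 CPM in the input and 85.4 to 140 CPM in the IP (−0.33 ± 0.23, adjusted p = 0.34).

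Markers of other cell types were mixed. These ratios set IP against input and measure neither cell number nor RNA per cell, which bulk libraries cannot tell apart. Of 13 inhibitory neuron markers of at least 20 CPM, 4 were lower and 1 higher, with a median of −0.82. With the 8 chronic libraries alone, 1 was lower and 2 were higher. Erbb4 (−2.30), Dlx1 (−1.85) and Npy (−1.41) were lower, and so was Pvalb, the calcium buffer of basket cells, at 93.5 to 131 CPM in the input and 33.1 to 101 CPM in the IP. Its ratio of −0.82 ± 0.28 (adjusted p = 0.028) lost its call without input library 1 or without IP library 2, 3 or 4, at −0.79 to −0.62. Gad1, the enzyme of GABA synthesis, went the other way, at 373 to 441 CPM in the input and 605 to 796 CPM in the IP (0.70 ± 0.16, adjusted p = 0.0012). The summed level of the list was 1485 ± 81 CPM in the input and 1492 ± 314 CPM in the IP. Of 12 markers of upper layer and layer 6 neurons, 3 were lower, namely Lhx2 (−1.87), Rorb (−1.42) and Cux2 (−0.72), and Lamp5 was higher (0.95). Markers shared by excitatory neurons stayed near the median of all genes, with 3 of 11 higher (Camk2a, Camk2b and Baiap2), 1 lower (Mef2c) and a median of 0.02.

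Oligodendrocyte genes lay lower, with 4 of 13 lower, 2 higher and a median of −1.16. Mbp, a major protein of myelin, held 823, 828, 719 and 983 CPM in input libraries 1 to 4 and 307, 283, 207 and 624 CPM in IP libraries 1 to 4 (−1.24 ± 0.23, adjusted p = 0.00017). The groups did not overlap, and library 4 was the highest in both fractions. Mobp, another myelin protein, held 260 to 314 CPM in the input and 24.8 to 99.4 CPM in the IP (−2.20 ± 0.26, adjusted p = 1.6e-07). Mag (1.17) and Cnp (0.61) were higher in the IP. Among 14 astrocyte markers, 3 were lower and 3 higher (1 and 2 with the 8 libraries alone), near the background of 14.5% and 18.6%. The glutamate transporter Slc1a2 was lower, at 607 to 996 CPM in the input and 169 to 569 CPM in the IP (−1.15 ± 0.30, adjusted p = 0.0043, and 0.056 with the 8 libraries alone), whereas Aldoc, the aldolase of astrocytes, was higher, at 623 to 678 CPM against 1025 to 1874 CPM (1.21 ± 0.17, adjusted p = 3.6e-06), as were Clu (1.18) and Aldh1l1 (1.40). The proteoglycan Cspg4 of oligodendrocyte precursors was at 4.11 to 8.23 CPM in the input and 12 to 59.3 CPM in the IP (2.62 ± 0.84, adjusted p = 0.017), and without input library 1 it no longer passed (2.48, adjusted p = 0.053). Cspg4 met the limit of 20 CPM only through its IP levels, so its call in the second fit adds little.

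IP library 4 carried the most glial RNA of the 4 pulldowns. Its summed levels were 7449 CPM for astrocytes, 3461 for oligodendrocytes and 310 for microglia, against 3407 to 5047, 1413 to 1835 and 61.7 to 80.1 in the other 3. Input library 4 was also the highest of the inputs for these lists, at 4961, 4298 and 286 CPM, against at most 3930, 3212 and 159. The part of these RNAs in the ratios was not tested. Without IP library 4, 5 in place of 3 astrocyte genes, 4 in place of 1 microglial genes and 4 in place of 0 genes of oligodendrocyte precursors were called lower over all genes tested, 5 in place of 3 of the upper layer and layer 6 list were lower, and 1 in place of 2 oligodendrocyte genes was higher. Lower calls rose over all genes as well, from 3315 of 16580 to 4267 of 16884 without that library. Of 15 microglial markers only Ctss and Csf1r reached 20 CPM, and neither passed (0.34 and 1.01). Sall1, used as a microglial factor, fell from 23.8 to 27.4 CPM in the input to 1.02 to 7.46 CPM in the IP (−2.59 ± 0.93, adjusted p = 0.036), a call that was lost without any one library other than IP library 3, at −2.75 to −2.26. Of 11 leukocyte markers tested, 7 were called lower, all of them under 20 CPM and with no count in the 4 IP libraries. Among all 2137 tested genes with no count in those libraries, 2059 were called lower. The summed level of the whole leukocyte list was 56.6 ± 17.4 CPM in the input and 21.9 ± 6.1 CPM in the IP.

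**Figure D3:**
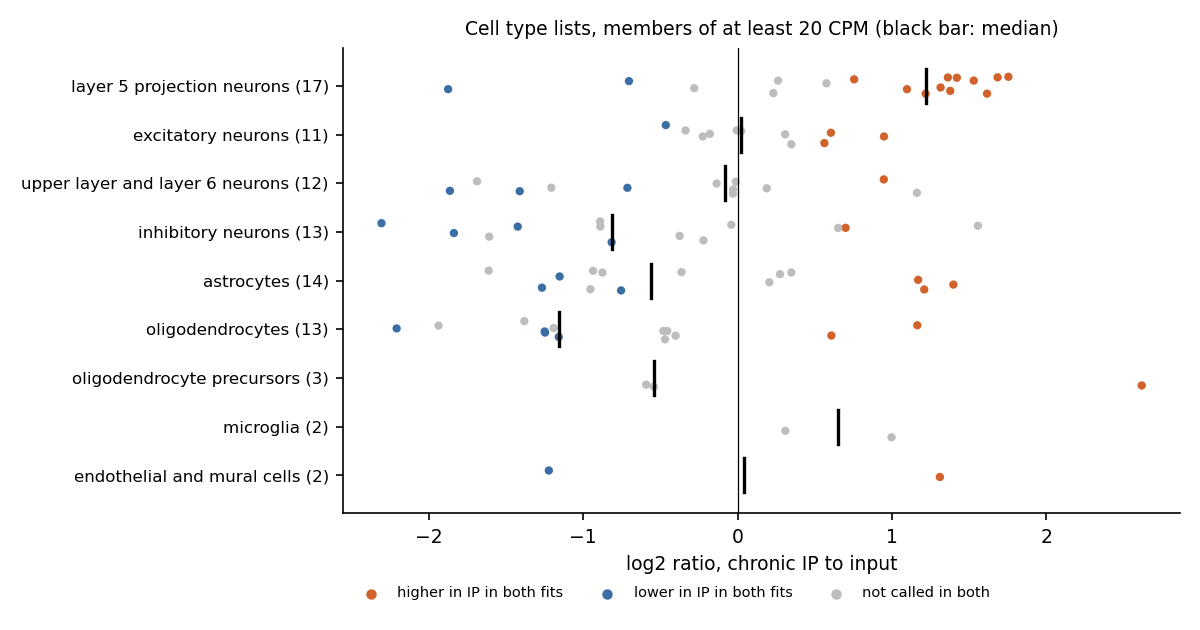
Points are log2 ratios of chronic IP to chronic input for the members of at least 20 CPM of 9 cell type lists, with the number of members in brackets and a black bar at the median. Members of the layer 5 list lie mostly to the right, with a median of 1.22, and members of the oligodendrocyte list mostly to the left, with a median of −1.16.

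Enzymes of sugar and pyruvate oxidation were higher in the pulldown. All 16 glycolysis genes were higher in both fits (background 18.6%), with a median of 1.68. Pkm, pyruvate kinase, held 1714, 1730, 1731 and 1606 CPM in the input and 6355, 8343, 6165 and 5869 CPM in the IP (1.98 ± 0.12, adjusted p = 9.9e-13). Gpi1, glucose phosphate isomerase, held 485 to 505 CPM against 1559 to 2438 CPM (1.95 ± 0.11, adjusted p = 3.3e-13). Eno1 and the hexokinase Hk1 gave 1.94 ± 0.13 and 1.92 ± 0.12 (adjusted p = 3.4e-12 and 1.3e-12), and the lowest ratio of the group was that of Pgam1, phosphoglycerate mutase (0.84 ± 0.11, adjusted p = 1.0e-06). The summed level of the list was 13536 ± 327 CPM in the input and 42311 ± 7358 CPM in the IP. All 17 genes of the tricarboxylic acid cycle and pyruvate entry were higher as well, with a median of 1.12, and with the lowest ratio, 0.56, for Pdha1, a subunit of pyruvate dehydrogenase. Fh1, fumarase, gave 1.59 ± 0.18 (adjusted p = 6.1e-08). The malate dehydrogenase Mdh2 held 317 to 334 CPM in the input and 754 to 1271 CPM in the IP (1.53 ± 0.16, adjusted p = 1.8e-08).

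Some respiratory chain genes encoded in the nucleus were higher. Of 52, 17 were higher and none was lower, with a median of 0.17. Uqcrc1, a core subunit of complex III, held 262 to 292 CPM in the input and 796 to 1073 CPM in the IP (1.69 ± 0.17, adjusted p = 7.0e-09). Ndufs1, the largest subunit of complex I, gave 1.52 ± 0.14 (adjusted p = 1.5e-09), and Ndufv1 and Atp5a1 gave 1.65 and 1.41. Cox8a, a small subunit of cytochrome oxidase, held 315 to 378 CPM in the input and 142 to 302 CPM in the IP and did not pass (−0.58 ± 0.25, adjusted p = 0.085), although it did so without IP library 1 (−0.75, adjusted p = 0.036). With genes put into 4 equal classes by coding length, the 14 members in classes 2 and 3 were all higher, where 20.95% and 26.3% of the other genes were. In class 1, that of the shortest coding sequences, 3 of 38 were higher, against 5.32% of the other genes of that class.

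The 7 mitochondrially encoded genes of at least 20 CPM were all lower in the pulldown (background 14.5%), with a median of −4.35. The cytochrome oxidase gene mt-Co1 held 1604, 1171, 1643 and 2901 CPM in the input and 44.2, 64.6, 76.3 and 107 CPM in the IP (−4.65 ± 0.43, adjusted p = 1.8e-09). The complex III gene mt-Cytb held 542 to 1331 CPM against 30.1 to 58.7 CPM (−4.36 ± 0.33, adjusted p = 4.2e-11), and mt-Nd5, a complex I gene, had the lowest ratio of the group (−5.43 ± 0.83, adjusted p = 1.4e-05). These genes are translated inside mitochondria on ribosomes that do not carry the tag. Reads of some of them can also match near-identical nuclear copies, which makes their counts uncertain. Input library 4 was the highest for each mitochondrial gene named. With limma's voom and a spread for each fraction, mt-Co1, mt-Cytb, mt-Nd4 and mt-Nd5 did not pass, at ratios of −5.61 to −4.32 (adjusted p = 0.071 to 0.35).

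Most of the listed nuclear and noncoding RNAs were lower as well. Of 9 nuclear and noncoding RNAs of at least 20 CPM, 8 were lower and none was higher, with a median of −2.93. Meg3, an imprinted long noncoding RNA, held 1137, 1221, 1010 and 1091 CPM in the input and 37.8, 23.2, 74.2 and 35.2 CPM in the IP (−4.71 ± 0.37, adjusted p = 9.4e-11). Malat1, a transcript of nuclear speckles, held 95.3 to 101 CPM against 0 to 15.2 CPM (−3.59 ± 0.80, adjusted p = 0.0012). Neat1, the scaffold of paraspeckles, and Miat also fell to 0 in one IP library each, library 2, with ratios of −3.73 ± 0.88 and −4.27 ± 0.92 (adjusted p = 0.0021 and 0.00095), neither of which passed with voom (adjusted p = 0.16 and 0.17). Snhg11 (−2.94 ± 0.31) and the imprinted Rian (−1.81 ± 0.18) were lower with counts in all 8 libraries, and Gas5 did not pass (−1.69). Of the 42 long noncoding genes of at least 20 CPM, 22 were lower and 2 higher.

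Most of the listed cytoskeletal genes were higher in the pulldown. Of 18 neurofilament, tubulin and microtubule genes, 14 were higher and 3 lower, with a median of 1.73. Nefm, the medium neurofilament subunit, held 310, 305, 326 and 297 CPM in the input and 1700, 2057, 1645 and 1474 CPM in the IP (2.47 ± 0.12, adjusted p = 5.2e-15). The light subunit Nefl held 383 to 422 CPM against 1274 to 1788 CPM (1.93 ± 0.12, adjusted p = 6.0e-13), and the neuronal tubulin Tubb3 held 436 to 464 CPM against 1488 to 2017 CPM (1.99 ± 0.13, adjusted p = 2.0e-12). All 3 lower members code for microtubule-associated proteins. Map2, which stabilises microtubules of dendrites, held 780, 810, 788 and 738 CPM in the input and 202, 224, 169 and 202 CPM in the IP (−1.97 ± 0.12, adjusted p = 1.3e-12), and Map1a (−0.43) and Mapt (−0.28) were lower by less. Without IP library 4, 1 member was called lower in place of 3. Of 22 motor genes, 8 were higher, led by the kinesin Kif3a (1.45 ± 0.14, adjusted p = 3.7e-09) and the dynein chain Dync1i1 (1.37), and Dynll2, a dynein light chain, was lower (−1.22 ± 0.10, adjusted p = 3.1e-10).

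Chaperones and the proteasome were high together. Of 26 heat shock chaperones, 19 were higher and 2 lower (Cryab and St13, or 1 without IP library 4), with a median of 0.87. Hsp90ab1, the constitutive HSP90, held 1497 to 1662 CPM in the input and 4594 to 7023 CPM in the IP (1.78 ± 0.11, adjusted p = 7.4e-13). Hspa8, the constitutive HSP70, and Hsph1, its exchange factor, gave 1.84 ± 0.15 and 1.88 ± 0.12 (adjusted p = 9.5e-11 and 1.6e-12). All 8 subunits of the TRiC chaperonin, which folds actin and tubulin, were higher, with a median of 1.20, from Cct4 (0.63) to Cct3 (1.55 ± 0.21, adjusted p = 1.6e-06). Of 31 proteasome subunits 23 were higher and none was lower, with a median of 0.80, led by Psmd2, a subunit of the regulatory particle, at 211 to 253 CPM in the input and 493 to 670 CPM in the IP (1.30 ± 0.12, adjusted p = 4.4e-09). In the endoplasmic reticulum and unfolded protein response list, 9 of 17 were higher and 1 was lower. The chaperones Calr (1.69 ± 0.22, adjusted p = 1.4e-06), Hspa5 (1.41 ± 0.22, adjusted p = 1.8e-05) and Hsp90b1 (1.43) were higher, as was the asparagine synthetase Asns (1.67 ± 0.20, adjusted p = 3.6e-07). Atf4, the transcription factor of the integrated stress response, was the member that lay lower, at 210 to 235 CPM in the input and 112 to 157 CPM in the IP (−0.70 ± 0.11, adjusted p = 2.6e-05).

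Genes of the translation machinery divided. Of 78 cytosolic ribosomal protein genes, 23 were lower and none was higher, with a median of −0.57. Rps29 held 162, 150, 137 and 124 CPM in the input and 45.2, 13.0, 43.5 and 27.7 CPM in the IP (−2.15 ± 0.43, adjusted p = 0.00048), Rps20 gave −1.35 ± 0.30 (adjusted p = 0.0012), and Rpl3 gave 0.13 ± 0.22 (adjusted p = 0.75). Many of these genes have near-identical processed pseudogenes, which can take reads. The median of the group was −0.07 in healthy and −0.86 in acute mice. Among the 71 members in the class of shortest coding sequences the median was −0.65, against −0.23 for the other genes of that class, and 23 of the 71 against 19.5% of the others were lower. Of 29 translation factors, 9 were higher and 7 lower. The elongation factors Eef2 (1017 to 1070 CPM against 2091 to 2679 CPM, 1.19 ± 0.10, adjusted p = 7.5e-10) and Eef1a2 (1.52 ± 0.12, adjusted p = 1.1e-10) were higher, and the poly(A)-binding protein gene Pabpc1 was lower (−1.01 ± 0.15, adjusted p = 1.1e-05), as were Eef1b2 (−1.27) and Eif4g2 (−1.22).

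**Figure D4:**
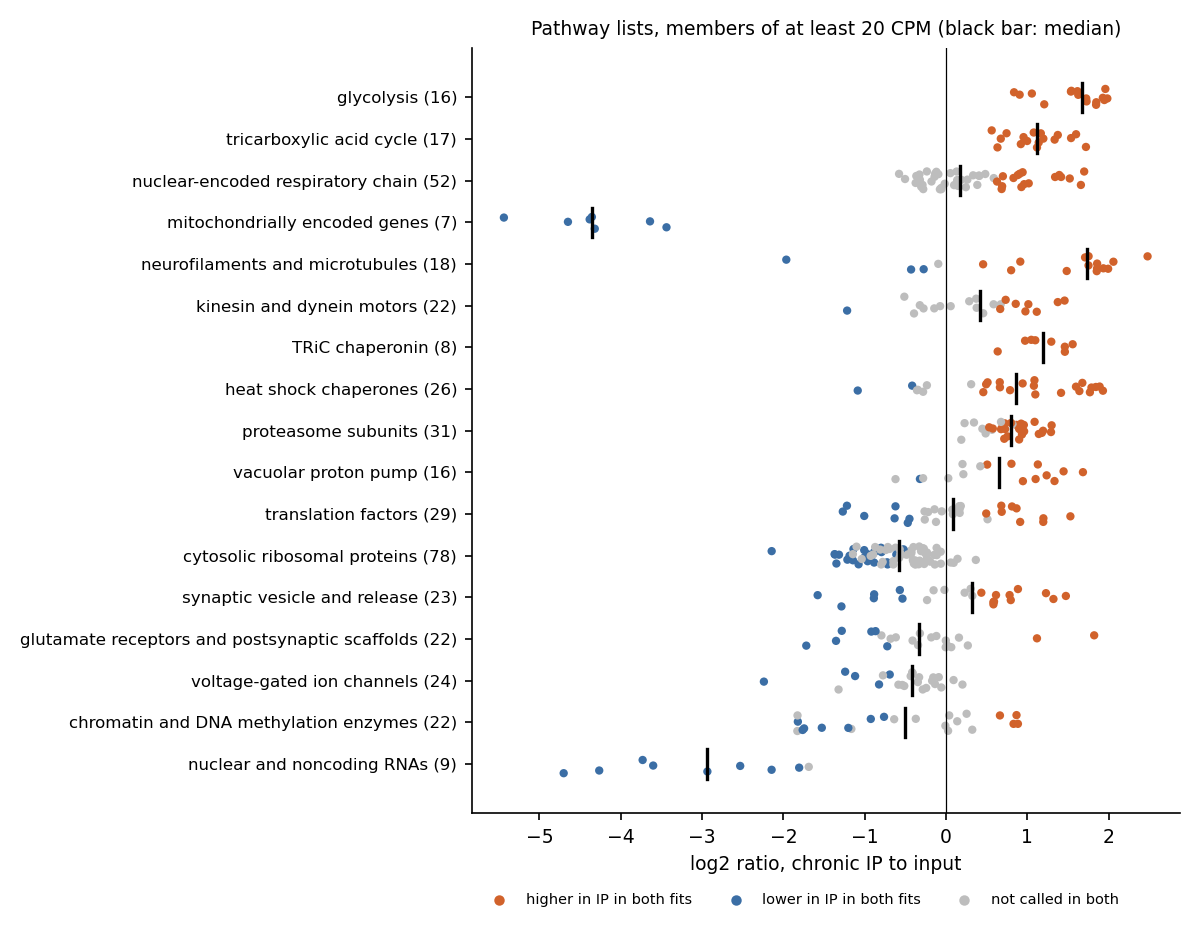
Points are log2 ratios of chronic IP to chronic input for the members of at least 20 CPM of 17 pathway lists, coloured by the call in both fits, with black bars at the medians. Glycolysis (median 1.68) and the tricarboxylic acid cycle (1.12) lie wholly to the right, and the mitochondrially encoded genes (−4.35) lie wholly to the left.

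The ferritin genes, which carry the hairpins printed above, were the 2 lower members among 19 iron and antioxidant genes of at least 20 CPM, of which 3 were higher. The background was 14.5% lower and 18.6% higher. Fth1, the heavy subunit, held 1765, 1619, 1625 and 1712 CPM in the input and 548, 667, 363 and 625 CPM in the IP (−1.61 ± 0.13, adjusted p = 2.9e-10). Ftl1, the light subunit, held 256, 238, 244 and 283 CPM in the input and 103, 158, 125 and 99.8 CPM in the IP (−1.07 ± 0.14, adjusted p = 1.4e-06). Ferritin genes also have processed pseudogenes, which makes the split of reads uncertain. In neither gene did the fractions overlap. Gpx4, the peroxidase that limits ferroptosis, held 262 to 326 CPM in the input and 145 to 334 CPM in the IP (−0.20 ± 0.28, adjusted p = 0.69), and Slc3a2, Prdx2 and Keap1 were the higher members (1.09, 0.86 and 0.69).

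Synaptic genes included higher and lower members. Of 23 genes of the synaptic vesicle and its release, 11 were higher and 6 lower, with a median of 0.32. Dnm1, the dynamin of endocytosis, held 1466 to 1697 CPM in the input and 4009 to 4779 CPM in the IP (1.47 ± 0.12, adjusted p = 2.0e-10), and Nsf, the fusion ATPase, gave 1.32 ± 0.11 (adjusted p = 3.0e-10). The active zone scaffolds Pclo (−1.58 ± 0.35, adjusted p = 0.0011), Bsn (−1.28) and Rims1 (−0.89) were lower. Of 22 glutamate receptors and postsynaptic scaffolds, 2 were higher and 6 lower, with a median of −0.33. Grin1, the obligate NMDA receptor subunit, held 191, 177, 194 and 233 CPM in the input and 557, 791, 625 and 836 CPM in the IP (1.82 ± 0.19, adjusted p = 2.9e-08), whereas its partner Grin2b was lower (−0.72). Shank1 (201 to 214 CPM against 31.8 to 90.7 CPM, −1.73 ± 0.28, adjusted p = 4.0e-05), Homer1 (−1.36 ± 0.19, adjusted p = 5.4e-06) and Dlg4 (−0.92 ± 0.14, adjusted p = 2.1e-05) are scaffolds and were lower. Of 24 voltage-gated channel genes 5 were lower and none was higher, with a median of −0.41 and Kcnq3, a subunit of the M current, at 173 to 193 CPM in the input and 22.5 to 57.8 CPM in the IP (−2.24 ± 0.26, adjusted p = 1.6e-07). Without IP library 4, 10 postsynaptic genes and 10 channel genes were lower over all genes tested, in place of 6 and 5. Among all genes, 4267 of 16884 were then lower, in place of 3315 of 16580.

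The vacuolar proton pump, which acidifies lysosomes and synaptic vesicles, had 9 of 16 subunits higher and 1 lower (0 without IP library 4), with a median of 0.66. Atp6v1h held 188 to 200 CPM in the input and 542 to 766 CPM in the IP (1.68 ± 0.15, adjusted p = 1.5e-09), and Atp6v1a 535 to 620 CPM against 1406 to 1900 CPM (1.44 ± 0.14, adjusted p = 5.2e-09). Among 24 autophagy genes, 6 were higher and 4 lower (7 and 1 with the 8 libraries alone), near the background of 18.6% and 14.5%. The cargo receptor Sqstm1 held 540 to 575 CPM in the input and 1173 to 1472 CPM in the IP (1.20 ± 0.11, adjusted p = 1.8e-09), and the lipid kinase Pik3c3 was also higher (1.61), while Atg12 (−1.24) and Ulk2 (−0.73) were lower. Of 17 cholesterol synthesis genes, 7 were higher and 1, the feedback regulator Insig1 (−0.84), was lower, and without IP library 4 there were 4 higher in place of 7. Fasn, the fatty acid synthase, held 156 to 179 CPM in the input and 592 to 962 CPM in the IP (2.27 ± 0.17, adjusted p = 2.3e-11). Of 22 chromatin and DNA methylation genes, 4 were higher and 7 lower (background 18.6% and 14.5%). Smarca4, a remodelling ATPase, was among the higher at 0.86 ± 0.14 (adjusted p = 2.6e-05). Of 14 immediate early genes, Egr4 was higher (1.25) and Egr3 lower (−1.47).

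Immune genes were too low for most tests. Of 30 interferon response genes, 6 reached 20 CPM, and 1 of them was higher in both fits (background 18.6%). Of the MHC class I genes 1 of 6 was higher, the immunoproteasome subunit Psmb10 (0.60), a share near the background of 18.6%, and with DESeq2's size factors or the 8 chronic libraries alone the list had 0 higher. In the list of 14 STING pathway genes, Sqstm1 was the member called higher in both fits, and Tbk1 (0.43), the kinase that STING recruits, did not pass. Sting1 had 28, 29, 20 and 52 counts in the input and 0, 91, 205 and 56 in the IP, or 1.46, 1.39, 0.999 and 2.55 CPM against 0, 7.47, 18.6 and 3.17 CPM. One IP library had no count and the other 3 lay above every input library, so that the log2 ratio of 2.19 ± 1.32 did not pass (adjusted p = 0.26, with a ratio of 0.35 by voom), and an exact two-sided permutation test of the CPM gave p = 0.229, where the smallest possible is 0.0286. A difference was not detectable at this depth and spread. Without IP library 4, more low-level immune genes were called lower over all genes tested, 5 interferon response genes in place of 0, 5 STING pathway genes in place of 1, and 3 genes each of MHC class I and class II presentation in place of 0 and 1. The lower calls over all genes rose too, from 3315 of 16580 to 4267 of 16884. The part of this rise in the immune counts was not tested.

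The length of the untranslated 3′ end varied with the ratio over all genes. Among 7580 protein-coding genes of at least 20 CPM, the longest coding transcript had a median 3′ untranslated region of 1426 bases, against 845 bases in genes higher in both fits and 2590.5 bases in genes lower in both. In 4 equal classes of that length, the share of genes higher in the IP fell from 30.1% in the shortest class through 22.8% and 14.9% to 7.12% in the longest, and the share lower rose from 4.53% through 8.67% and 16.2% to 27.7%. Across genes the Pearson correlation of 3′ length with the log2 ratio was −0.29 (Spearman −0.37, n = 7580 genes, which are not independent replicates and share the 8 libraries). The same correlation was −0.40 in healthy (Spearman −0.50) and −0.25 in acute mice (Spearman −0.34), and the difference between phases was not tested. The median ratio of the shortest class was 0.36 in chronic, 0.37 in healthy and 0.24 in acute mice, and that of the longest was −0.40, −0.46 and −0.40. Coding sequences of the higher genes were longer (median 1669.5 bases, against 1134 bases in lower genes), with a median GC content of transcripts of 52.6% against 46.8%.

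**Figure D5:**
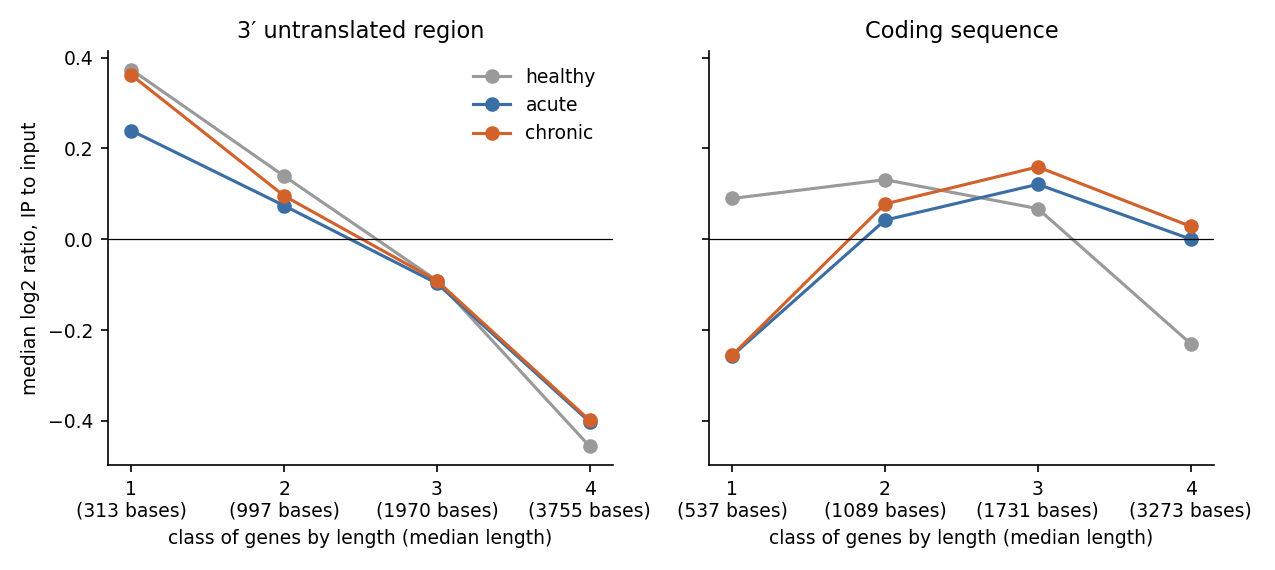
Median log2 ratios of IP to input of 7580 protein-coding genes in 4 equal classes (labelled by class number, with the median length) of 3′ untranslated length (left) and of coding length (right), with 1 line for each phase. The lines fall together with 3′ length, from 0.36 to −0.40 in chronic mice, while with coding length the healthy line lies apart from the acute and chronic lines in the shortest and the longest class.

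The last comparison asked whether the pulldown differed from the input by another amount in chronic than in healthy mice. The chronic ratio was higher than the healthy ratio for 105 genes (0.633%) and lower for 65 (0.392%), 170 in all, of which 72 lay under 20 CPM, 21 had no count in any healthy IP library, and 51 of the lower ones had no count in any chronic IP library. The count depended on single libraries, at 25 genes without chronic input library 4 and 485 without chronic IP library 1 (38, 48 and 52 without inputs 1, 2 and 3, 257 and 414 without IP 2 and 4). With same-numbered IP and input libraries fitted as blocks, 28 genes differed. In both fits, 96 genes differed, 82 higher and 14 lower, and 75 of the 82 were also higher in the chronic IP than in the chronic input. Of the glycolysis list 5 of 16 differed from healthy, of the heat shock list 5 of 28, of the neurofilament and microtubule list 5 of 18, and of the proton pump 4 of 16.

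Pfkp, the platelet-type phosphofructokinase, had a log2 ratio of 1.84 in chronic and 0.59 in healthy mice, a difference of 1.25 ± 0.20 (adjusted p = 0.0019). Pcx, pyruvate carboxylase, went from 0.07 in healthy to 1.37 in chronic mice (1.31 ± 0.20, adjusted p = 0.0017), and Lrpprc, a regulator of mitochondrial RNA, from 0.83 to 2.33 (1.50 ± 0.25, adjusted p = 0.0026). Hsph1, Psmd1 and Atp6v1a differed by 0.97 ± 0.16, 1.09 ± 0.18 and 0.99 ± 0.18 (adjusted p = 0.0026, 0.0026 and 0.0082). These 6 genes kept their call under every alternative that was run for them. Nefm rose from 1.56 to 2.47 (0.92 ± 0.15, adjusted p = 0.0026), a call lost when limma's voom with a spread for each fraction was used (0.91, adjusted p = 0.056). Gad1 went from −0.33 in healthy to 0.70 in chronic mice (1.03 ± 0.21, adjusted p = 0.017), and did not pass without input library 4 (0.99, adjusted p = 0.06). In acute mice the log2 ratios were 1.02 (Pfkp), 0.81 (Pcx), 1.15 (Lrpprc), 1.28 (Hsph1), 0.11 (Psmd1), 0.56 (Atp6v1a), 2.38 (Nefm) and 0.15 (Gad1).

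Fewer genes of at least 20 CPM had a lower ratio in chronic mice. The mitochondrial genes mt-Nd4 and mt-Cytb differed by −2.07 ± 0.46 and −1.53 ± 0.39 (adjusted p = 0.028 and 0.049). Without input library 4, which held the most mitochondrial RNA, the differences were −1.73 and −1.22 and did not pass (adjusted p = 0.088 and 0.11), nor did they without input library 1 (−2.13 and −1.59), and mt-Cytb did not pass without input 2 or 3 or IP 1 or 3 either (−1.69 to −1.41). Camk2n1, an inhibitor of calmodulin kinase, went from −0.89 to −1.62 (−0.73 ± 0.16, adjusted p = 0.031), Fkbp1a, an immunophilin, from 0.02 to −0.61 (−0.63 ± 0.16, adjusted p = 0.042), and Pcp4l1 from −0.89 to −2.12 (−1.23 ± 0.28, adjusted p = 0.036). Each of these 3 lost its call without 1 of several libraries: input 1, 2 or 4 for Camk2n1 (−0.75 to −0.66), and any input or IP 3 for Fkbp1a (−0.65 to −0.57) and Pcp4l1 (−1.26 to −1.13). With limma's voom and a spread for each fraction, none of mt-Nd4, mt-Cytb, Camk2n1, Fkbp1a and Pcp4l1 passed (−2.20 to −0.67, adjusted p = 0.091 to 0.94). Their log2 ratios in acute mice were −3.47, −4.41, −1.42, −0.21 and −1.78, in that order. The largest fitted differences belonged to genes of a few CPM that were at 0 in the IP of 1 phase, among them Plgrkt, Ccdc153, Fgfbp3, Uvssa and Alg14 (0 in all chronic IP libraries) and Prdm9, Ripk1, Dock8, Sag and Apobec3 (0 in all healthy IP libraries). Plgrkt was at least 147-fold lower in the chronic IP than in the chronic input, and Fgfbp3 at least 196-fold, taking 3 counts over the 4 IP libraries as the floor, which covers counting error only. Sting1 belonged with them: it had no count in the healthy IP libraries, and its ratio differed from the healthy one (8.64 ± 2.06, adjusted p = 0.041, a size that depends on the prior count), but not without any one of the 4 input libraries or without IP library 3 (7.62 to 8.95, adjusted p = 0.052 to 0.096).

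The genes that differed from healthy were set apart by coding length. The 82 higher genes had a median coding sequence of 2346 bases and the 14 lower ones of 510 bases, against 1366.5 bases over all. The median difference between the chronic and healthy ratios was −0.31 in the shortest class of coding length, −0.03 and 0.11 in the middle classes and 0.29 in the longest, over all genes of at least 20 CPM, and its correlation with coding length across 7580 genes was 0.44 (Spearman 0.46). The part of this in the single genes was not tested. No gene had a chronic ratio that differed from the acute one (0 of 16580 by edgeR, 2321 at an unadjusted p under 0.05, 491 by DESeq2's Wald test). Among the genes with the smallest p, Plgrkt, Cobll1, Lpcat3 and Fgfbp3 were at 0 in the chronic IP and failed the correction (smallest adjusted p = 0.0943). Among genes of at least 20 CPM, 1 of 7650 (0.0131%) differed, Atp6v1a, with a ratio of 1.44 in chronic and 0.56 in acute mice (adjusted p = 0.0397, n = 4 and 5 libraries a fraction by edgeR), whereas over all genes it did not.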

How the data were processed

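Poly A enriched RNA of 28 libraries was measured by sequencing, and the 8 chronic libraries are described here. The authors deposited whole-number counts per gene, made per the file headers with featureCounts 1.5.1 from read pairs, without strand, on Ensembl release 79 exons, and aligned per the submitters' processing notes with STAR 2.4 to GRCm38 (mm10). DESeq2 is named there too. The header names 36 alignment files, of which columns for 28 were held and used. Without strand, overlapping and antisense genes cannot be told apart, and near-identical copies can split reads. Gene coordinates are those deposited with the counts, and symbols came from a reference list of gene names. Gene types, transcript lengths and hairpin positions came from GENCODE M21 (GRCm38), which held 42462 of 43629 genes. Coding and 3′ untranslated lengths of a gene are those of its longest coding transcript. GC content is that of its longest transcript of any type, and the hairpin search read every transcript.

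Counts were fitted in R 4.3.3 with edgeR 4.0.16: filterByExpr by group (minimum count 10, minimum total 15), TMM scaling, a factor of 6 groups over all 28 libraries, and the robust quasi-likelihood test, at a Benjamini-Hochberg adjusted p under 0.05 with no minimum change. A second fit used genes with a mean of at least 20 CPM over the 8 chronic libraries. The fits were tested on simulated data first. Alternatives were DESeq2 1.42.0, limma 3.58.1 (voom with a spread for each fraction), other filters and scaling, a replicate block, the 8 libraries alone, and each chronic library left out.

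Named genes are the 12 higher and 12 lower with the largest ratio (mean log2 CPM of at least 1, groups that do not overlap), the 10 and 10 among genes of at least 100 CPM, 5 and 5 for each difference between phases, up to 5 of each list, and fixed genes (Colgalt2 with neighbours within 250 kb, Fezf2, Pou3f1, Crym, Rpl10a, Sting1, Gpx4). The text gives those it needs and further list members as examples chosen after their values were seen. The 37 lists, the members and the tests were chosen with earlier results of these data known. The 2 hairpins were chosen after the ratios were seen. Some members of the lists are not reported here by name.

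The labels give IP and input libraries the same numbers. Depth per library limits genes of a few CPM. The standard errors include the spread between libraries, and the floors cover counting error only.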

Additional observations from a re-analysis of the deposited data

Results flagged for a closer look

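In groups of 4 libraries, the highest or lowest library stood apart from the other 3 (by Dixon's ratio) in 20 of 282 groups, or 7.09%, where chance gives about 1 in 20. Input library 4 stood apart as the highest for Slc1a2 (996 CPM), the MHC class I sum (632 CPM), the MHC class II sum (156 CPM) and the number of genes with a count (21167), and as the lowest for Pkm (1606 CPM), Hk1 (331 CPM), Dnm1 (1466 CPM), Pfkp (283 CPM) and the tricarboxylic acid cycle sum (3938 CPM). Input library 1 was the highest for Rpl10a (145 CPM), Gpi1 (505 CPM), Camk2n1 (3750 CPM) and the excitatory neuron sum (10826 CPM). Among the pulldowns, IP library 4 was the highest for the microglial sum (310 CPM), IP library 2 for Uqcrc1 (1073 CPM), the STING pathway sum (1717 CPM) and the glycolysis sum (53247 CPM), IP library 3 for Smarca4 (332 CPM) and Fam19a2 (52.8 CPM), and IP library 1 for Prdm9 (18.1 CPM).

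The log2 ratio of IP to input differed between chronic and healthy mice by edgeR's test of the difference for 37 of the genes named. Among those with counts in the IP of both phases, it was higher in chronic mice for Nefm (0.92), Nefl (0.74), Nefh (0.88), Lrpprc (1.50), Gad1 (1.03), Gpi1 (0.61), Hk1 (0.78), Pfkp (1.25), Pcx (1.31), Ndufs1 (0.85), Hsp90ab1 (0.64), Hsph1 (0.97), Psmd1 (1.09), Psmd2 (0.82), Eef2 (0.57), Asns (1.11), Atp6v1a (0.99), Atp6v1h (0.82) and Kif3a (0.87). It was lower for mt-Cytb (−1.53), mt-Nd4 (−2.07), Camk2n1 (−0.73), Fkbp1a (−0.63) and Pcp4l1 (−1.23). Genes with no count in the IP of 1 of these phases had fitted differences whose size depends on the prior count and is no bound, namely Sting1 (8.64), Prdm9 (9.98), Ripk1 (9.44), Dock8 (9.14), Sag (8.43) and Apobec3 (8.09), and, in the other direction, Plgrkt (−10.58), Ccdc153 (−10.49), Fgfbp3 (−10.28), Uvssa (−9.97), Alg14 (−9.67), Lpcat3 (−9.65) and Cobll1 (−8.15). Differences from healthy of Nefl, Nefh, Gpi1, Hk1, Ndufs1, Hsp90ab1, Psmd2, Eef2, Asns, Atp6v1h, Kif3a, Lpcat3 and Cobll1 were not checked under the alternatives.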

How the results depend on the processing

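The count of genes higher in the chronic IP stayed within 1.5 times the 1449 reported, at 1223 to 1621 over the settings run and 1240 to 1457 with 1 library left out. The count of lower genes (3315) was 1171 with genes of at least 20 CPM over the 8 libraries, 1151 with genes of at least 20 CPM in input or IP and 2106 with the 8 chronic libraries alone (3160 to 4267 with 1 left out). The first 2 settings tested fewer genes. The count that differs from healthy (170) was 47 without the low-count filter, 47 with voom, 1017 with DESeq2's Wald test and 25 to 485 with 1 library left out. The cause was not tested. The count that differs from acute (0) was 491 with the Wald test, 1 and 1 with the 20 CPM limits and 0 to 52 with 1 left out (52 without IP 1, 34 without IP 4). Sting1 did not pass under any setting run, at 1.14 to 2.60 with 1 left out, 0.35 with voom, 1.07 with the replicate block and 2.19 to 2.23 in the others. With the 8 chronic libraries alone, 18 counts of list members called in 1 direction moved by more than 1.5 times and 56 did not. Those that moved were 4 or fewer in the fit of all libraries. Deviations of same-numbered IP and input libraries from their group means correlated at 0.160, 0.006, 0.117 and 0.234. Those of libraries with different numbers correlated at −0.174 to 0.062. The labels do not say whether same-numbered libraries come from the same mouse, and the main fit left the numbers out. A pairing by mouse is thus not excluded. With a replicate block, 1223 genes were higher, 2925 lower, 28 differed from healthy and 0 from acute. With the block the differences from healthy of Sting1 (adjusted p = 0.55), mt-Cytb (0.084), Fkbp1a (0.11), and Plgrkt, Ccdc153, Fgfbp3, Uvssa, Alg14, Prdm9, Ripk1, Dock8, Sag and Apobec3 (0.14 to 0.83) did not pass, nor did the ratios of Cspg4 (0.089), Sall1 (0.10) and Deptor (0.082), and no other call of a gene tested under it changed. Input libraries 1, 3 and 4 correlated best with the IP library of their own number, and input library 2 did not. No ratio reversed.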

Other observations

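Of the 16580 genes tested, 2137 had no count in any of the 4 chronic IP libraries. Among the most abundant of these in the input, with the floor of 3 counts over the 4 IP libraries, were Ftx, a noncoding RNA near Xist (at least 239-fold lower), Tet1, an enzyme that oxidises methylated cytosine (at least 187-fold), and Cdon, a cell surface receptor (at least 170-fold). They were chosen after their values were seen.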
